A study of Mus musculus with 12 samples.

Results

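The genes described here encode 9 proteins that move salt, acid, bicarbonate and water across the lining of the gut: Cftr and Slc12a2 for chloride secretion, Slc9a2 and Slc9a3 for sodium-proton exchange, Slc26a3, Slc26a6 and Slc4a4 for anion and bicarbonate transport, Atp1b1 of the sodium pump, and Guca2b, a peptide signal that sets the balance between secretion and absorption. They were listed by name as ion and fluid transport genes, with earlier results of these data known. All 9 were found among the 15855 genes of the table and passed the filter on low counts. RNA was sequenced from EpCAM+ epithelial cells sorted from the whole small intestine of C57BL6/J mice 24 h after surgery. The mice were male young adults, and the labels name no allele or other treatment in either group. In the pMCAO group (n = 5) a filament blocked the middle cerebral artery permanently, a model of stroke without reperfusion, and the sham group (n = 7) had the same surgery without the occlusion. Both groups were anaesthetised with ketamine and xylazine, and cells were sorted as live (7AAD-) and EpCAM+, so every type of epithelial cell could enter a sample. Each sample is labelled as its own biological replicate. The study's pMCAO group for this experiment was larger, and the rest of it was not analysed here.

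In the small intestine, fluid follows salt. Cells of the crypts load chloride from the blood side and release it through the CFTR channel, and water follows, whereas cells of the villi take up sodium and chloride through paired sodium-proton and chloride-bicarbonate exchangers, with the sodium pump on the blood side driving both directions. The guanylin peptides, released into the lumen, act through the receptor guanylyl cyclase C and cyclic GMP to open CFTR and to slow sodium-proton exchange. The comparison of the groups asked whether the epithelium carried different levels of these transcripts after stroke.

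None of the 9 genes was called different between pMCAO and sham. A call needed an adjusted p (limma-voom, Benjamini-Hochberg) not above 0.05 among the 14462 genes tested and a log2 fold change of 1 or more in either direction, and 0 of 14462 genes met it (0%). At an unadjusted p under 0.05, 3 of the 9 genes were higher in pMCAO and 0 were lower, where the same limit was passed by 1219 genes (8.43%), of which 674 were higher (4.66%) and 545 lower (3.77%). By edgeR's quasi-likelihood test 0 genes were called and 930 had an unadjusted p under 0.05, 2 of the 9 genes among them. The 3 genes were Guca2b, Slc26a6 and Atp1b1, with log2 fold changes of 0.93, 0.59 and 0.59. The median log2 fold change of the 9 genes was 0.57, that of all genes tested was 0.06, and 6 of 9 were above 0, against 55.2% of all genes. As the 9 genes were listed with earlier results known, these contrasts are a description and were not tested. With the library set described below as a covariate, the median of the 9 genes was -0.03 (0.02 over all genes), 4 of 9 were above 0, and 2 of 9 (Guca2b and Slc26a6) had an unadjusted p under 0.05, against 10% of all genes. Leaving out pMCAO replicate 4 or pMCAO replicate 5 reduced the 3 genes to 1, Guca2b, and leaving out pMCAO replicate 1 gave 5, with Slc9a2 and Slc26a3 added. Over all 14462 genes the count at this limit moved the same way. It was 908 without pMCAO replicate 4, 859 without pMCAO replicate 5 and 2093 without pMCAO replicate 1, against 1219 with every sample. Leaving out sham replicate 1, 2, 3, 5 or 6 gave 2 of the 9 genes, where 881 to 1393 of all genes passed the limit. Over the 25 other settings tried, Guca2b passed it in 25, Slc26a6 in 20 and Atp1b1 in 9.

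The libraries fell into sets that bear on several of these genes. Sample titles carry a library number, and the 4 early libraries (58 to 61, sham replicates 1 to 3 and pMCAO replicate 1) stood apart from the 8 later ones (62 to 72, 4 sham and 4 pMCAO) on the first principal component, which held 40.5% of the variance. Total counts ran from 7418730 to 31925579. Mitochondrial ribosomal RNA took 34.8% to 54.5% of them in the early libraries and 14.6% to 35.2% in the later ones. Genes detected numbered 13386 to 14712 in the early libraries and 15343 to 15766 in the later ones. The epithelial markers, 7 genes including Epcam and Vil1, were present in every library. Their summed level was 5930 to 7560 CPM (counts scaled to library size with TMM factors) in the early libraries and 3570 to 5590 CPM in the later ones. Of these genes, 4 were higher and 1 was lower in all early libraries. Of 10 stromal and muscle markers 8 were absent from the table. Markers of 3 rarer epithelial cell types followed the library sets in the other direction. The summed goblet cell markers reached 4130 to 8120 CPM in the early libraries and 20600 to 55100 CPM in the later ones. The enteroendocrine markers reached 180 to 368 and 1550 to 3230 CPM, and the tuft cell markers 20.1 to 49.2 and 214 to 979 CPM. Every gene of the 3 lists was lower in all early libraries, an order found for 9.4% of all genes tested. Stem cell markers summed to 5.3 to 20.7 CPM early and 22.3 to 58.4 CPM later, and 3 of the 5 genes had that order. Paneth cell markers summed to 10.6 to 21 and 16.8 to 85.9 CPM, and crypt proliferation markers to 49.8 to 68.3 and 41.1 to 185 CPM. In both lists 0 genes had it, though all 6 Paneth cell genes had a higher mean log2 level in later than in early sham. The villus enterocyte markers went both ways. Of the 10 genes 4 had a higher mean log2 level in later than in early sham and 6 a lower one, 1 was higher in all early libraries, and their sum, in which Apoa1 and Apoa4 weigh most, was 28100 to 64400 CPM early and 17700 to 33100 CPM later. Summed immune markers were at 40.5 to 53.9 CPM and 47.7 to 241 CPM. The part of these differences in the values below was not tested. In these sorted bulk samples, fewer cells of a type, less RNA per cell and a technical difference between the library sets cannot be told apart. With the library set as a covariate 16 genes were called (0.111%) and with the later libraries alone 0 were (0%), none of them among the 9 in either fit.

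**Figure D1:**
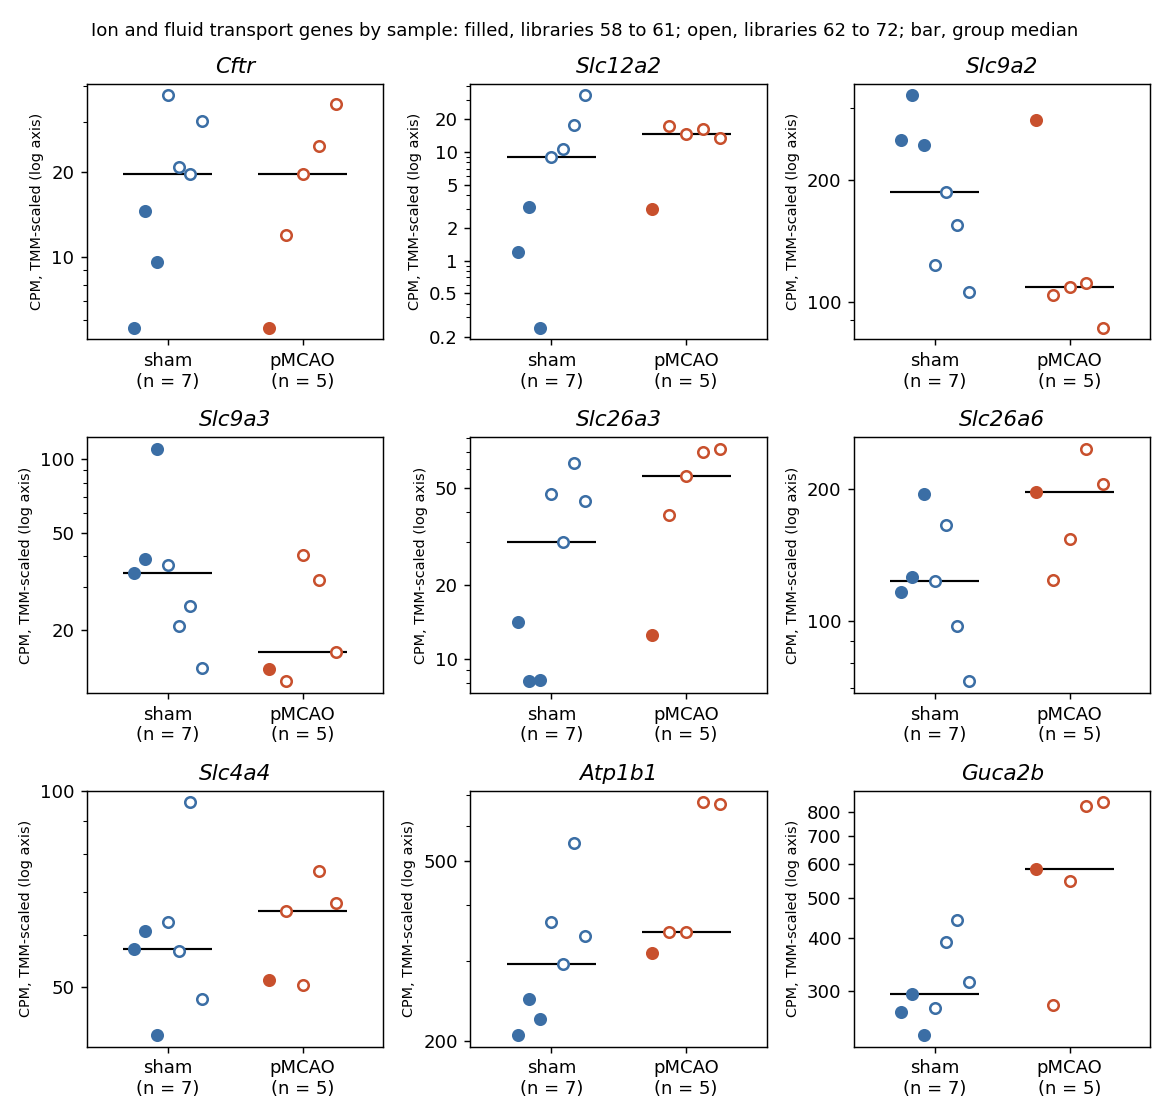
Level of each of the 9 genes in every sample (CPM, scaled with TMM factors, log axis) in sham (blue, n = 7) and pMCAO (orange, n = 5), with filled points for the 4 early libraries, open points for the 8 later ones and a bar at the group median. Guca2b was above every sham sample in 4 of the 5 pMCAO samples, while the early libraries sat lowest for Slc12a2 and Slc26a3 and highest for Slc9a2.

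Cftr, the apical chloride and bicarbonate channel that is mutated in cystic fibrosis, had the same median in both groups. Its level in sham ran from 5.65 through a median of 19.6 to 37.2 CPM, and the pMCAO samples were at 5.64, 12, 19.6, 24.7 and 34.7 CPM from replicate 1 to 5. The groups overlapped over almost their whole range, and the lowest sample of each was an early library. The fitted change, pMCAO over sham on the log2 scale, was -0.05 (SE 0.45, 95% interval -0.999 to 0.900, adjusted p = 0.982). With the library set as a covariate it was -0.29 (95% interval -0.88 to 0.30), both intervals covering 0. The gene lies at chr6:18170687-18322768 on the plus strand of GRCm38, and 129 bases of its exons (1.66%) are shared with the antisense gene Gm15592, from which its reads cannot be told apart because the strand setting of the counting was not stated.

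Slc12a2 encodes NKCC1, the basolateral cotransporter that loads crypt cells with sodium, potassium and chloride before chloride leaves through Cftr. It was the gene with the widest spread among samples. Sham ran from 0.241 CPM, which was 1 count in sham replicate 3 and so below the floor of 3 counts (0.404 CPM there before TMM scaling), through a median of 8.89 to 33.1 CPM, and the pMCAO samples were at 2.99, 17.4, 14.7, 16.1 and 13.3 CPM. All 4 early libraries (at most 3.11 CPM) were below all 8 later ones (at least 8.89 CPM), whichever the group, an order found for 1359 of the genes tested (9.4%). The fitted difference between the groups was 0.57 on the log2 scale (SE 0.68, 95% interval -0.88 to 2.02, adjusted p = 0.839). It was -0.03 with the library set as a covariate and -0.07 among the later libraries. In those later libraries sham averaged 17.6 ± 11 CPM (SD, n = 4), against 15.4 ± 1.77 CPM (SD, n = 4) for pMCAO. The gene lies at chr18:57878678-57946821, plus strand.

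The ratio of Cftr to Slc12a2, set per exon length within each sample, was 0.972 to 5.88 in the later libraries and 2.65 to 56.3 in the early ones, the highest of these resting on the single Slc12a2 count. Of 10 further genes of chloride secretion (potassium channels of the basolateral side, other chloride channels and the kinases that switch the cotransporter), all were tested and 0 were called. Ano1, the calcium-activated chloride channel, had the smallest unadjusted p of this list. It was at 0 in sham replicates 1, 3 and 7, at most 2.59 CPM in the other sham samples, and at 1.11, 4.72, 0.922, 2.32 and 6.87 CPM in pMCAO (log2 fold change 2.91, SE 1.08, adjusted p = 0.504). At levels this low the fitted fold depends on the prior count.

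**Figure D2:**
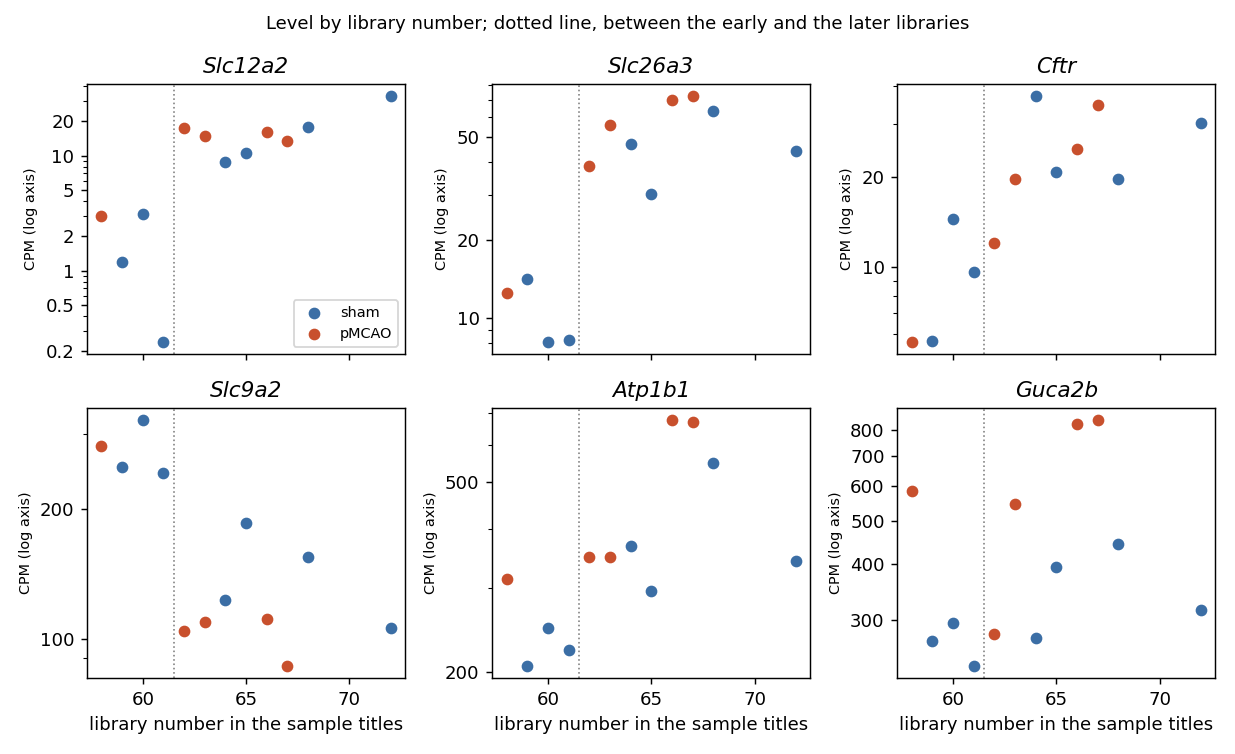
Level of 6 of the genes (CPM, log axis) against the library number in the sample titles, in sham (blue) and pMCAO (orange), with a dotted line between the early and the later libraries. Slc12a2 and Slc26a3 are lower and Slc9a2 is higher in all 4 early libraries, while Guca2b is higher in pMCAO replicate 1, at 584 CPM, than in the 3 early sham libraries, at 236 to 295 CPM.

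The 2 sodium-proton exchangers were both lower in pMCAO by their fitted values, and neither passed the test. Slc9a2 encodes NHE2 and Slc9a3 encodes NHE3, the main apical route for sodium absorption in the small intestine. For Slc9a2, sham ran from 106 through 186 to 323 CPM and the pMCAO samples were at 281, 104, 109, 111 and 86.3 CPM. All 4 early libraries (243 to 323 CPM) were above all 8 later ones (86.3 to 186 CPM), an order shared by 790 of the genes tested (5.46%), so the one high pMCAO sample was the early one. The log2 fold change was -0.56 (SE 0.32, 95% interval -1.23 to 0.12, adjusted p = 0.645). It was -0.32 (SE 0.16, unadjusted p = 0.0675) with the library set as a covariate. Within the later libraries sham averaged 143 ± 35.1 CPM (SD, n = 4), against 103 ± 11.2 CPM (SD, n = 4) for pMCAO, a log2 difference of -0.45 (SE 0.20, unadjusted p = 0.039, adjusted p = 0.633), where 1129 genes (7.81%) had an unadjusted p under 0.05. The groups overlapped there too, since sham replicate 7 at 106 CPM lay below pMCAO replicates 3 and 4. The gene lies at chr1:40680574-40769273, plus strand.

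Slc9a3 was at 13.9 to 110 CPM in sham with a median of 34.2, and at 13.8, 12.3, 40.3, 32.0 and 16.2 CPM in pMCAO. The highest value was sham replicate 3, and without that early library the next highest sham sample was at 38.8 CPM, below pMCAO replicate 3. The log2 fold change over all samples was -0.48 (SE 0.40, 95% interval -1.33 to 0.36, adjusted p = 0.742), and -0.43 (SE 0.37) with the library set as a covariate. It was -0.01 (SE 0.38) among the later libraries, where sham averaged 24.1 ± 9.55 CPM (SD, n = 4), against 25.2 ± 13.2 CPM (SD, n = 4) for pMCAO. The 3 early sham libraries were at 34.2 to 110 CPM and the early pMCAO library was at 13.8 CPM. The gene lies at chr13:74121457-74169442, plus strand. The ratio of Slc9a2 to Slc9a3 per exon length was 1.74 to 7.02 in sham and 2.13 to 16.1 in pMCAO, the last in pMCAO replicate 1.

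Of 9 further genes that anchor or regulate these exchangers, 7 were in the table and 0 were called, with 0 under an unadjusted p of 0.05. Slc9a3r1, which encodes the scaffold NHERF1 that ties NHE3 and CFTR to the brush border, averaged 349 ± 106 CPM (SD, n = 7) among sham samples against 313 ± 85.3 CPM (SD, n = 5) after pMCAO (log2 fold change -0.15, SE 0.23, adjusted p = 0.88). Chp1, a calcium-binding partner of the exchangers, had the smallest p of the list (log2 fold change -0.25, SE 0.19, adjusted p = 0.717).

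Slc26a3 and Slc26a6 encode the apical anion exchangers DRA and PAT1, which trade luminal chloride for bicarbonate. Slc26a3, whose loss causes congenital chloride diarrhoea, was at 8.09 to 63.1 CPM in sham with a median of 30.2, and at 12.5, 38.8, 56.0, 70.0 and 72.4 CPM in pMCAO. As for Slc12a2, all 4 early libraries (at most 14.1 CPM) were below all 8 later ones (at least 30.2 CPM). Among the later libraries pMCAO replicates 4 and 5 were above all sham samples, and the others lay within the sham range. Its fitted difference on the log2 scale was 0.58 (SE 0.51, 95% interval -0.50 to 1.66, adjusted p = 0.762) and 0.30 (95% interval -0.17 to 0.78) with the library set as a covariate.

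Slc26a6 did not follow the library sets. Sham ran from 72.6 through 123 to 195 CPM and the pMCAO samples were at 197, 124, 154, 247 and 205 CPM. Replicates 1, 4 and 5 of pMCAO were above every sham sample, replicate 1 by a small margin, and replicates 2 and 3 lay inside the sham range. The level was 1.5-fold higher in pMCAO (log2 fold change 0.59, SE 0.24, 95% interval 0.07 to 1.10, unadjusted p = 0.0286, adjusted p = 0.543). With the library set as a covariate the difference was 0.63 on the log2 scale (SE 0.21, adjusted p = 0.289), and among the later libraries it was 0.71 (SE 0.27, adjusted p = 0.614). Per exon length, Slc26a3 stood at 0.0357 to 0.104 of the level of Slc26a6 in the early libraries and at 0.156 to 0.553 of it in the later ones. In the later libraries that ratio was 0.156 to 0.553 in sham and 0.241 to 0.31 in pMCAO, and so the pMCAO samples lay inside the sham range. Slc26a6 lies at chr9:108853283-108913049 and Slc26a3 at chr12:31390871-31473917, both on the plus strand.

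Slc4a4, which encodes the sodium-bicarbonate cotransporter NBCe1 that brings bicarbonate in from the blood side, was the steadiest of the 9 genes. Sham ran from 42.2 through 57.2 to 96.0 CPM and the pMCAO samples were at 51.2, 65.4, 50.3, 75.4 and 67.2 CPM, every one inside the sham range. The log2 fold change was 0.04 with the narrowest interval of the 9 genes (SE 0.20, 95% interval -0.39 to 0.46, adjusted p = 0.971), and it was -0.05 with the library set as a covariate. Its highest and lowest samples differed 2.27-fold, against 8.95-fold for Slc26a3. It lies at chr5:88886818-89239653, plus strand.

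Of 14 further anion and bicarbonate genes, 12 were tested, 0 were called, and 4 had an unadjusted p under 0.05, all higher in pMCAO. Of all genes 8.43% passed that limit, and 4.66% did so with a higher level in pMCAO. Car4 had the smallest unadjusted p of this list and was named for that. It encodes carbonic anhydrase IV, which is anchored to the brush border and interconverts bicarbonate and carbon dioxide there. Its levels in sham were 5.18, 0.207, 1.21, 11.4, 10.8, 4.18 and 9.03 CPM, and in pMCAO 12.4, 27, 18.8, 13.1 and 19.5 CPM. Every pMCAO sample was thus above every sham sample, as held in either direction for 73 of the genes tested (0.505%) and for 0 of the 9 transport genes above. In the 8 later libraries the groups were apart for 508 genes (3.51%), and again for 0 of the 9. The level was 3.71-fold higher in pMCAO (log2 fold change 1.89, SE 0.48, adjusted p = 0.268, and 1.62 with adjusted p = 0.0818 when the library set was a covariate). Its value in sham replicate 2 is below the floor of 3 counts, which was 0.398 CPM there before TMM scaling. The cytosolic Car2 averaged 4.86 ± 4.1 CPM (SD, n = 7) for sham against 6.38 ± 3.96 CPM (SD, n = 5) after pMCAO (log2 fold change 0.54, SE 0.52, adjusted p = 0.791).

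The stretch before a start of Slc26a3 is shown because it shares a motif with that of Guca2b, given further on. Of the 7 annotated transcripts 2 begin right after it, 1 of them coding for protein, 47348 bases inside the locus, whose outermost transcript begins farther upstream. It is the 250 bases at chr12:31437969-31438218 in RefSeq (GRCm38.p6), plus strand, and the 2 last bases lie in an exon of another annotated transcript. Capitals mark matches to the 6 motifs searched on both strands over 32851 such windows, which were TATAAA (in 12.4% of windows), GTTAAT, a part of the site of HNF1 factors (6.43%), TTTATG, the core of CDX sites (10.8%), AGATAA, for GATA factors (9.99%), CAAAGT, a part of HNF4 sites (12.6%), and GGGCGG, the GC box (32.7%). In the windows printed here no match overlapped another. Slc26a3 held GTTAAT 94 and 84 bases and TATAAA 30 bases before the start.
Slc26a3: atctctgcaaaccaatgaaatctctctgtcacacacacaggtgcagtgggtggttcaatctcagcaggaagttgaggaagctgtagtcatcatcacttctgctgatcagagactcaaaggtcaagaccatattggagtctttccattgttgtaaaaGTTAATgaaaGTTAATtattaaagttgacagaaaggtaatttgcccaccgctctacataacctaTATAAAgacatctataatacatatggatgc

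Atp1b1 encodes the beta subunit of the sodium pump, which the pump needs to reach the basolateral membrane, where it drives both absorption and secretion. Sham ran from 206 through 296 to 550 CPM and the pMCAO samples were at 313, 349, 349, 675 and 669 CPM. Replicates 4 and 5 of pMCAO were the highest of all samples, and the other 3 lay within the sham range. The level was 1.5-fold higher in pMCAO (log2 fold change 0.59, SE 0.28, 95% interval 0.003 to 1.17, unadjusted p = 0.0489, adjusted p = 0.592). With the library set as a covariate the log2 fold change was 0.39 (SE 0.20, unadjusted p = 0.0692), and 0.41 (SE 0.26) among the later libraries. Without pMCAO replicate 4 it was 0.42 (unadjusted p = 0.165). Atp1b1 lies at chr1:164437109-164458355 on the minus strand, and 575 bases of its exons (18.7%) overlap Nme7 on the opposite strand, so a part of its counts is uncertain.

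Of 10 further sodium pump genes, 4 were tested and 0 were called. The window before the start of Atp1b1 is shown as that of a subunit gene with high expression in every sample, at chr1:164458356-164458605 on the minus strand (RefSeq, GRCm38.p6). It held the GC box on its minus strand, read as CCGCCC, 205 and 124 bases before the start and none of the other motifs.
Atp1b1: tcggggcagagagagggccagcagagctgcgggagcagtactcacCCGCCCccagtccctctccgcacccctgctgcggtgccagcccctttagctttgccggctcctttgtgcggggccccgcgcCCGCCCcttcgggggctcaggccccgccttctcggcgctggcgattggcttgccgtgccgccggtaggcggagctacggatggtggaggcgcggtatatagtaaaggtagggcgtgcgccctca

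Guca2b encodes uroguanylin, the guanylin peptide of the upper small intestine, and had the largest fitted difference of the 9 genes. Sham ran from 236 through 295 to 443 CPM (mean 318 ± 74.1, SD, n = 7), and the pMCAO samples were at 584, 278, 546, 827 and 841 CPM (mean 615 ± 232, SD, n = 5). The pMCAO samples were above every sham sample except for replicate 2, which lay inside the sham range, so the groups overlapped by 1 sample. The level was 1.9-fold higher in pMCAO (log2 fold change 0.93, SE 0.26, 95% interval 0.38 to 1.47, unadjusted p = 0.0023). The p adjusted over all genes was 0.322, and so Guca2b was not called.

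The higher Guca2b level stood in both library sets. Among the early libraries the single pMCAO sample was at 584 CPM and the 3 sham samples were at 236 to 295 CPM, with no test of 1 sample. Among the later ones sham averaged 357 ± 76 CPM (SD, n = 4), against 623 ± 267 CPM (SD, n = 4) for pMCAO (log2 fold change 0.75, SE 0.30, unadjusted p = 0.0267, adjusted p = 0.623). With the library set as a covariate it was 0.81 (SE 0.24, adjusted p = 0.203). Over the 25 other settings tried, its log2 fold change was 0.75 to 1.16, its unadjusted p 0.000122 to 0.0267 and its adjusted p 0.0257 to 0.705, and it was called in 0 of them.

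The guanylin gene Guca2a lies next to Guca2b on chromosome 4, the 2 genes at chr4:119637704-119639471 (plus strand) and chr4:119656607-119658954 (minus strand), with 17135 bases and 0 annotated genes between their 3' ends. Guca2a was at 30.6 to 82.0 CPM in sham with a median of 44.8, and at 113, 74.6, 58.8, 76.2 and 88.6 CPM in pMCAO. The difference on the log2 scale was 0.65 (SE 0.24, unadjusted p = 0.0164, adjusted p = 0.505). It was 0.55 (SE 0.22, unadjusted p = 0.0239) with the library set as a covariate and 0.29 (SE 0.23) among the later libraries. Replicates 1 and 5 of pMCAO exceeded every sham sample. The neighbours did not keep the same order of samples, since pMCAO replicate 1 was the highest for Guca2a and the third of the 5 for Guca2b. Per exon length Guca2b was 2.63 to 5.97 times Guca2a in sham and 2.54 to 7.41 times in pMCAO. The receptor Gucy2c averaged 98.3 ± 22.1 CPM (SD, n = 7) for sham against 130 ± 42.4 CPM (SD, n = 5) after pMCAO (log2 fold change 0.38, SE 0.23, adjusted p = 0.649). Of 5 further genes of this pathway, Guca2a and Gucy2c included, 4 were tested and 0 were called.

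The windows before the starts of the guanylin pair are shown to compare the neighbours, at chr4:119658946-119659195 on the minus strand for Guca2b and chr4:119637482-119637731 on the plus strand for Guca2a (RefSeq, GRCm38.p6). Their last 9 and 28 bases lie in exons of the GENCODE models. Guca2b held GTTAAT 33 bases before the start, and Guca2a held AGATAA on its minus strand, read as TTATCT, 144 and 120 bases before the start, so the pair shared none of the 6 motifs in these windows.
Guca2b: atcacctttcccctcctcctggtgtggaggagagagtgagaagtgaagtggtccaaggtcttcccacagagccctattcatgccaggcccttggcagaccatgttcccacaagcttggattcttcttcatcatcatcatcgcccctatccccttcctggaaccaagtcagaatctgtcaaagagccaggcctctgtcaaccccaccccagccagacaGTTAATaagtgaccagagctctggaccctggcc
Guca2a: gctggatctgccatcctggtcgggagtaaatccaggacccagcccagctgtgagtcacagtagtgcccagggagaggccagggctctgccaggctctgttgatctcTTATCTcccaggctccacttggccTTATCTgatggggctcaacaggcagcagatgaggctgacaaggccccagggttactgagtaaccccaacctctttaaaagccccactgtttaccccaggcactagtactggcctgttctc

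**Figure D3:**
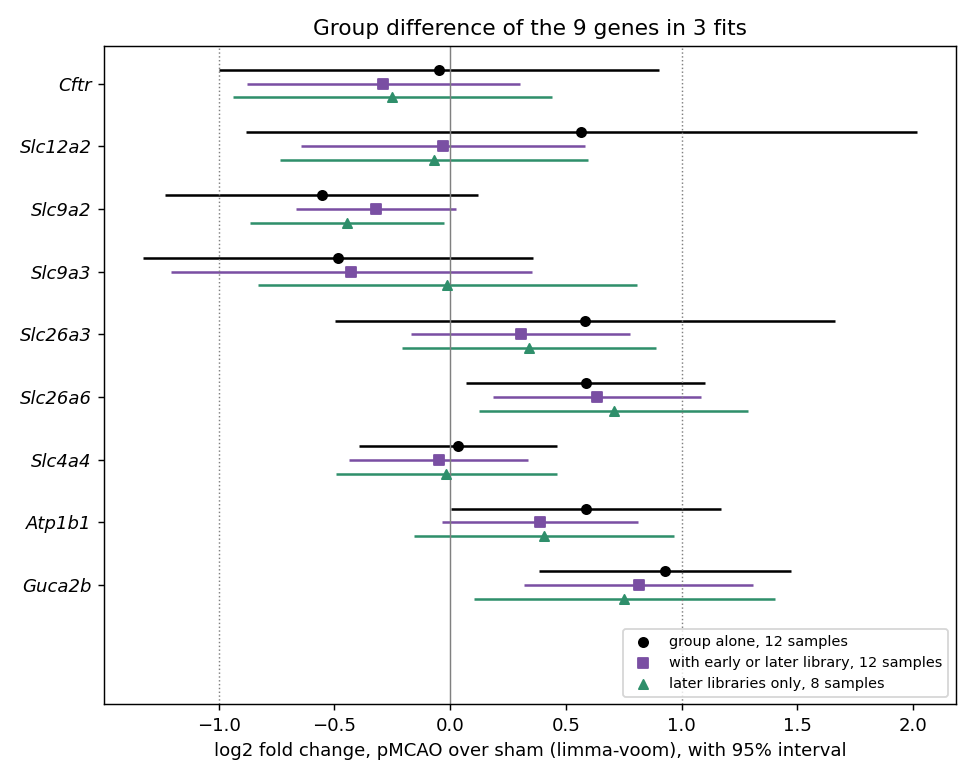
Log2 fold change of pMCAO over sham for the 9 genes with 95% intervals in the limma-voom fits on the group alone (black, 12 samples), with the library set as a covariate (purple, 12 samples) and in the later libraries alone (green, 8 samples). The intervals of Guca2b and Slc26a6 lie above 0 in all 3 fits. All 9 intervals narrow with the library set as a covariate, those of Slc12a2 and Slc26a3 the most. Over all genes tested the median SE went from 0.38 to 0.33.

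pMCAO replicates 4 and 5 were the highest pair of their group for 6 of the 9 genes (Cftr, Slc26a3, Slc26a6, Slc4a4, Atp1b1 and Guca2b), as was the case for 1608 of all genes tested (11.1%). Of the 10 villus enterocyte markers, 4 had the same pair on top (Sis, Anpep, Lct and Fabp1). Sis, the sucrase-isomaltase, was at 1880, 2340, 1910, 3930 and 4830 CPM in pMCAO and at 797 to 2390 CPM in sham. Anpep, an aminopeptidase, was at 1580, 2240, 1510, 2890 and 4260 CPM in pMCAO and 789 to 2760 CPM in sham. Between the groups, 0 of the 10 markers were called. At an unadjusted p under 0.05, 4 were higher in pMCAO and 0 lower, with the same counts when the library set was a covariate. That limit was passed by 8.43% of all genes, and by 10% with the covariate. The 4 were Sis (log2 fold change 1.14, adjusted p = 0.322), Fabp1 (1.00), Fabp2 (0.92) and Anpep (0.82), and the median of the 10 was 0.33. Alpi, the intestinal alkaline phosphatase, had another order, with its highest pMCAO value, 3070 CPM, in replicate 1. These markers' part in the values of the transport genes was not tested.

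Set per length of exon (RPKM, the CPM per kilobase), the order of the 9 genes was steady at its top and bottom. Guca2b had the highest median, 408 RPKM (272 to 967), followed by Atp1b1 at 112 RPKM (67 to 219), and each was above the next gene in 12 of 12 samples. Slc26a6 at 25.9 and Slc9a2 at 19.9 RPKM changed places with the library set, since Slc26a6 was the higher in 1 of 4 early and 6 of 8 later libraries, but Slc9a2 exceeded the next gene in 12 of 12. Slc26a3 (6.53), Slc4a4 (5.46) and Slc9a3 (5.19 RPKM) were close in their medians, and their order also differed by library set. Slc26a3 was below Slc4a4 in all 4 early libraries (1.27 to 2.21 against 3.90 to 5.64 RPKM) and above it in 7 of 8 later ones, and Slc4a4 was above Slc9a3 in 1 of 4 early and 6 of 8 later libraries. Cftr at 2.52 RPKM was below Slc9a3 in 10 of 12 samples, and Slc12a2 at 1.10 RPKM was below Cftr in 11 of 12. The secretory pair thus had the lowest levels and the peptide and pump genes the highest.

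**Figure D4:**
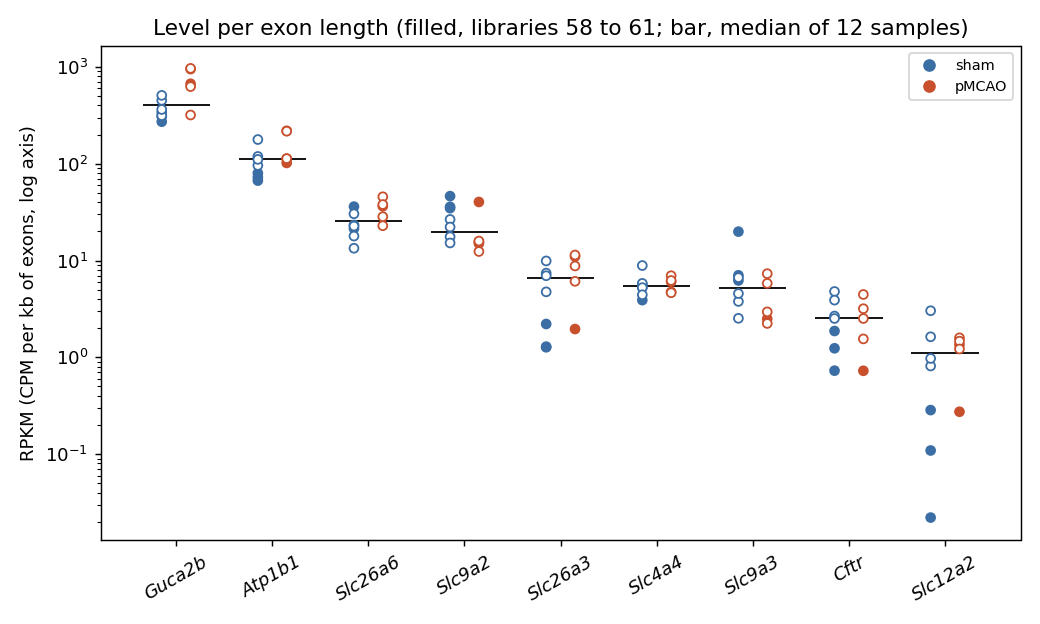
Level per exon length (RPKM, log axis) of the 9 genes in the order of their medians (bars, 12 samples), with sham in blue, pMCAO in orange and filled points for the 4 early libraries. Guca2b spans 272 to 967 RPKM and lies above Atp1b1 in all 12 samples, while Slc12a2 spans 0.0221 to 3.03 RPKM.

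Across all 66 further transport genes of the lists, 51 were tested, 0 were called and 10 had an unadjusted p under 0.05, 8 of them higher after pMCAO and 2 lower, beside the 8.43% of all genes. Their median log2 fold change was 0.14. The 2 lower genes were Ptger4, a prostaglandin E receptor that raises cyclic AMP, with a mean of 114 ± 45.5 CPM (SD, n = 7) for sham against 62.5 ± 26 CPM (SD, n = 5) after pMCAO (log2 fold change -0.84, SE 0.30, adjusted p = 0.489), and Aqp7, a water and glycerol channel, with 19.2 ± 6.94 against 13.5 ± 11.7 CPM (log2 fold change -1.01, SE 0.37, adjusted p = 0.501), although its highest sample was pMCAO replicate 1 at 33.8 CPM. Of the genes of the sodium channel list, Nedd4l, a ubiquitin ligase that removes the channel from the membrane, had the smaller p (log2 fold change -0.43, SE 0.24, adjusted p = 0.628).

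**Figure D5:**
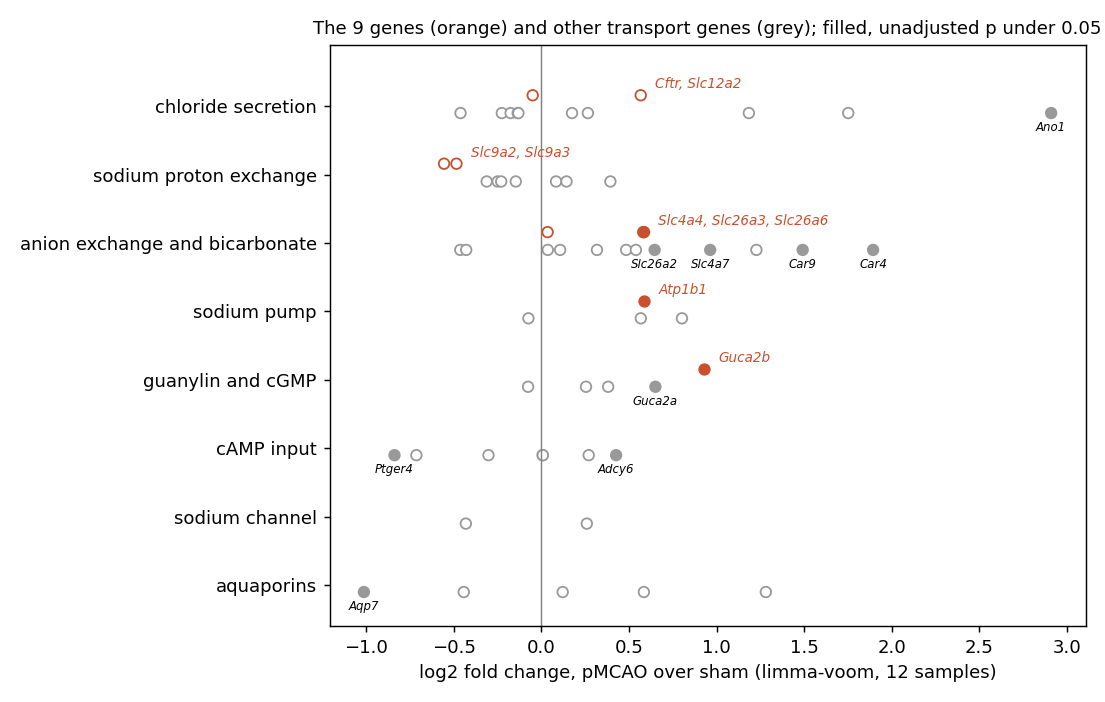
Log2 fold change of pMCAO over sham (limma-voom, 12 samples) for the 9 genes (orange) and the other transport genes tested (grey, 1 gene not shown), by list, with filled points for an unadjusted p under 0.05. The 5 filled genes of the anion and bicarbonate list, Slc26a6 among them, and the filled Atp1b1 and Guca2b lie above 0, and none of the points passed the adjusted threshold.

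For each of the 9 genes the single most similar gene was found as the one, among genes with a mean of at least 5 CPM, whose log2 CPM centred on its mean had the smallest root mean square difference over the 12 samples. The smallest difference was that of Slc4a4 from Rabl6, at 0.158 on the log2 scale, followed by Slc9a2 from Nfat5 (0.162) and Atp1b1 from Cyb5b (0.181). Slc26a6 was matched by Atg2b (0.238), Guca2b by Slc6a20a, an amino acid transporter of the brush border (0.254), and Slc26a3 by Hacd3 (0.337). The differences of Slc9a3 from Spg20 (0.414), Cftr from Acot13 (0.42) and Slc12a2 from Rab37 (0.43) were the largest. They were not scaled to the spread of each gene over the 12 samples. That spread (SD of log2 CPM) was smallest for Slc4a4, at 0.317, and largest for Slc12a2, at 1.91. Relative to it, Slc12a2 was matched more closely than Slc4a4. When levels were centred within the early and within the later libraries, the nearest gene changed for 7 of the 9 and stayed the same for Slc9a3 and Slc26a6.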

How the data were processed

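Ribosomal RNA was removed by cleavage, libraries were prepared with the Trio kit and paired-end reads were sequenced. The authors aligned the reads to GRCm38 with STAR and assigned them to genes with featureCounts (versions and strand setting not given in the sources used here). The deposited counts are whole reads per gene, not normalised, for 15855 genes. The deposited CPM columns are counts divided by each column's sum, and were not used in tests. The deposited log2 columns (fold change over sham and average expression) and p-value columns (p and false discovery rate) belong to the authors' own comparison with limma-voom in Degust, corrected for the day of tissue collection, and were not used. All 12 sample columns were matched to the labels by library name, and 0 were left over.

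Genes were kept with filterByExpr (minimum count 10), which left 14462 and removed 1393, scaled with TMM and tested with limma-voom on the group alone (limma 3.58.1, edgeR 4.0.16, R 4.3.3). Calls needed a Benjamini-Hochberg adjusted p, taken over all genes tested, not above 0.05 and a log2 fold change of 1 or more in either direction. The labels give no collection day, so no day term could be fitted. Levels are TMM-scaled CPM, and RPKM divides them by union exon length (GENCODE M21). Log2 CPM for spread and likeness used a prior count of 2. A floor of 3 counts equalled 0.094 to 0.404 CPM, covering counting error only. The script was tested on simulated data. Alternatives were edgeR, DESeq2 (1.42.0), limma-trend, quality weights, other scaling and filters, library set or number as covariate, the replicate block, and leaving out each sample; the 2 that joined the library set to edgeR or DESeq2 were chosen after seeing the data.

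The 9 genes, the gene lists and the split between libraries 61 and 62 were chosen with earlier results of these data known, so library sets were not tested against each other. Named genes were the 9, the smallest p of each further list, the partners Guca2a, Gucy2c, Slc9a3r1 and Car2, and the most similar gene to each of the 9. Other names were chosen after their values were seen: Sis, Anpep, Lct, Alpi, Fabp1, Fabp2, Apoa1, Apoa4, Slc26a2, Slc4a7, Car9 and Adcy6. Promoter windows came from RefSeq (GRCm38.p6) by symbol, for 7 of the 9 genes (Slc9a2 and Slc12a2 had no entry). The values of 1 partner gene are not reported here.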

Additional observations from a re-analysis of the deposited data

Results flagged for a closer look

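Of 40 groups of values tested for a sample far from the others of its group, 2 were marked, where chance marks about 2. Both were pMCAO replicate 1, the only early library of its group. For Slc12a2 it stood at 1.63 on the log2 CPM scale (2.99 CPM, 35 counts), while the other pMCAO samples were at 3.74 to 4.13 (13.3 to 17.4 CPM). For Slc9a2 it stood at 8.14 (281 CPM), with the others at 6.43 to 6.79 (86.3 to 111 CPM). In both genes it lay beside the early sham libraries, which were at 0.241 to 3.11 CPM for Slc12a2 and 243 to 323 CPM for Slc9a2.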

How the results depend on the processing

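None of the 9 genes was called in any of the 25 settings beside the fit reported, and 208 of their 225 values kept their direction and side of the threshold. The count of genes called over all genes, 0 in the fit reported, was 68 with DESeq2, 1 with limma-trend, 18 with quality weights, 16 with the library set, 156 with the library number, 243 with the replicate block, 20 with the library set in edgeR and 79 with it in DESeq2, and 0 to 18 when 1 sample was left out (5 without sham replicate 7, 8 without pMCAO replicate 1 and 18 without pMCAO replicate 3). Further transport genes called were 1 with DESeq2, 2 with the library number, 4 with the replicate block, 1 with the library set in DESeq2, and 0 to 0 when 1 sample was left out. Cftr, Slc12a2 and Slc4a4, with wide intervals or small fold changes, turned sign. Cftr (-0.05) was at 0.0698 with quality weights, 0.37 with the library number, 0.20 with the replicate block, and -0.34 to 0.22 with 1 sample left out. Slc12a2 (0.57) was at -0.0313 with the library set and -0.0701 in the later libraries, and at 0.13 (without sham replicate 1) to 1.09 (without sham replicate 6) with 1 sample left out. Slc4a4 (0.04) was at -0.0501 with the library set, -0.0168 in the later libraries, -0.0407 and -0.0562 with the library set in edgeR and DESeq2, and -0.0385 to 0.162 with 1 sample left out. With 1 sample left out, the others ranged from -0.85 to -0.42 (Slc9a2), -0.80 to -0.28 (Slc9a3), 0.40 to 0.98 (Slc26a3), 0.45 to 0.71 (Slc26a6), 0.42 to 0.72 (Atp1b1) and 0.79 to 1.16 (Guca2b). The cause was not tested. The adjusted p of Guca2b passed 0.05 with DESeq2 (0.0493), the library number (0.0408), the replicate block (0.029) and the library set in DESeq2 (0.0257), with log2 fold changes under 1. That of Atp1b1 passed with the replicate block alone (0.0357). The labels do not say whether replicate numbers pair the samples. Same-numbered deviations correlated at 0.398, -0.239, -0.163, 0.163 and 0.0823 for replicates 1 to 5. Of the pMCAO samples, replicate 1 alone matched the sham sample of its own number best. Without a reference from unpaired samples, these values cannot decide whether the samples were paired. Depth limits the lowest gene, Slc12a2, with 1 count in its lowest library.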

Other observations

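The following 4 transport genes, named after their values were seen, had an unadjusted p under 0.05 and were higher in pMCAO without passing the adjusted test. Slc26a2, a sulfate and anion exchanger, averaged 153 ± 67.6 CPM (SD, n = 7) for sham against 227 ± 40.5 CPM (SD, n = 5) after pMCAO (log2 fold change 0.65, SE 0.26, adjusted p = 0.525). Slc4a7, a sodium-bicarbonate cotransporter, was at 19.9, 24.4, 38.9, 108 and 85.4 CPM in pMCAO and 6.76 to 34.4 CPM in sham (log2 fold change 0.96, SE 0.44, adjusted p = 0.583), with replicates 4 and 5 again the highest. Car9, a carbonic anhydrase of the basolateral side, was at 0 to 8.82 CPM in sham and 3.25 to 7.52 CPM in pMCAO (log2 fold change 1.49, SE 0.56, adjusted p = 0.507). Adcy6, an adenylyl cyclase that makes cyclic AMP, was at 49.1 ± 9.52 CPM (SD, n = 7) and 64.1 ± 9.34 CPM (SD, n = 5) (log2 fold change 0.43, SE 0.17, adjusted p = 0.526).

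Markers of position along the small intestine were measured because levels of uroguanylin and of several exchangers change along it. The summed level of 4 proximal markers was 174 to 775 CPM in sham and 332 to 625 CPM in pMCAO, and that of 5 distal markers was 356 to 980 CPM and 569 to 1060 CPM. Both ranges overlapped between the groups, and 0 of these genes were called. At an unadjusted p under 0.05, 4.66% of all genes were higher in pMCAO and 3.77% lower. At that limit 2 of 5 distal markers were higher in pMCAO, Slc51b (log2 fold change 0.68, adjusted p = 0.51) and Slc51a (0.50, adjusted p = 0.589), and 1 of 4 proximal markers was lower, Cybrd1 (-3.16, adjusted p = 0.357), which reached at most 3.27 CPM. These 3 were named after their values were seen. Their part in the values of Guca2b was not tested.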
